A study of Canis lupus familiaris with 22 samples.

Results

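FCGR1A, TYROBP, C5AR1, SLC11A1, CTSS, S100A8 and CHI3L1 are genes that cells of the myeloid lineage use, and their transcripts were followed here in mammary tissue from malignant tumours, from benign tumours and from dogs free of tumours. They were found by name, through the canine RefSeq transcript that a probe targets. The 7 genes are among 36619 genes and have 8 of the 43603 probes on the array, 2 of them for SLC11A1. Only 1458 of the 36619 have a symbol. Each probe target without a symbol counts as a gene of its own in all counts and shares here, so that 1 gene can count more than once. All 7 genes and all 8 probes passed the filter on dim signals that left 28936 genes for testing. Each Agilent canine array received the Cy3-labelled RNA of 1 tissue, and the signal of a spot stands for the amount of its transcript.

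The samples are whole pieces of tissue from clinical cases of canine mammary tumour and, for the healthy group, from dogs without a tumour, and no agent or genotype separates the groups. The malignant group holds tumours of several histological types and the benign group several kinds of adenoma, and the ages of the dogs were not used here. Scanner values were analysed for 19 arrays: 9 arrays of 5 malignant dogs, 6 arrays of 3 benign dogs and 4 arrays of 2 healthy dogs. The arrays of 1 dog were averaged, so that every number of replicates counts dogs. The level of a gene is the log2 signal of its brightest probe minus the 75th percentile of the array, so that 0 is that percentile and a step of 1 is a doubling. Levels are compared between dogs for the same probe and never between probes.

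Monocytes leave the blood and become macrophages in tissue, where they take up antibody-coated particles, digest them and show fragments to T cells. Neutrophils are short-lived phagocytes that follow complement fragments and chemokines and carry a store of antimicrobial proteins. Both are found in mammary tumours, in which tumour-associated macrophages often make up a large part of the leukocytes. FCGR1A and TYROBP belong to the receptors and adaptors through which these cells sense their targets, C5AR1 senses complement, SLC11A1 and CTSS work in the phagosome and lysosome, and S100A8 and CHI3L1 are secreted.

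The healthy group needs a remark before its values are used. The 7 tested marker genes of exocrine pancreas had a mean level of 8.98 in healthy dog 1 and of 5.49 in healthy dog 2, against -4.29 to -2.60 in the 8 tumours. Markers of mammary epithelium were mixed. The keratin KRT14 was at 3.92 and 5.002 in the healthy dogs and at 0.86 to 8.37 in the tumours. In healthy dog 1 the 8 tested genes of this list ran from -6.52 for ESR1 to 3.92 for KRT14. Their mean was -0.85 in healthy dog 1 and 1.47 in healthy dog 2, and -2.10 to 3.84 in the tumours. Of these pancreas genes, 6 were called lower in malignant tumours and 6 in benign tumours. Tissue makeup and group therefore cannot be told apart in any comparison with the healthy dogs, and values against each healthy dog alone stand beside the results. The arrays also differed in brightness. The 75th percentile of signal stood over the background by a factor of 8.58 to 18.7 in the healthy group, of 6.37 to 40.0 in the malignant group and of 23.9 to 45.3 in the benign group, and 62.2% to 83.2% of probes were well above background over all 19 arrays.

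The myeloid genes had their lowest mean in healthy tissue in 7 of 7 cases and their highest mean in benign tumours in 6 of 7, with CHI3L1 as the exception. The median log2 fold change of the members was 2.16 in malignant and 2.84 in benign tumours against healthy tissue, beside medians of 0.07 and 0.01 over all genes tested. Single calls were few at this number of dogs. With limma and Benjamini-Hochberg adjustment over all genes, 0 members were called higher in malignant tumours, where the share over all genes was 0%, and 1 member, FCGR1A, was called higher in benign tumours, where it was also the only one of 28936 genes, or 0.00346%. At an unadjusted p of at most 0.05, 3 members were higher in malignant tumours against 2.25% of all genes, and 4 members were higher in benign tumours against 3% of all genes. FCGR1A, TYROBP and SLC11A1 lay higher in every one of the 8 tumours than in both healthy dogs, which 2.65% of all genes did. In whole tissue, more cells of a type and more RNA per cell cannot be told apart.

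**Figure D1:**
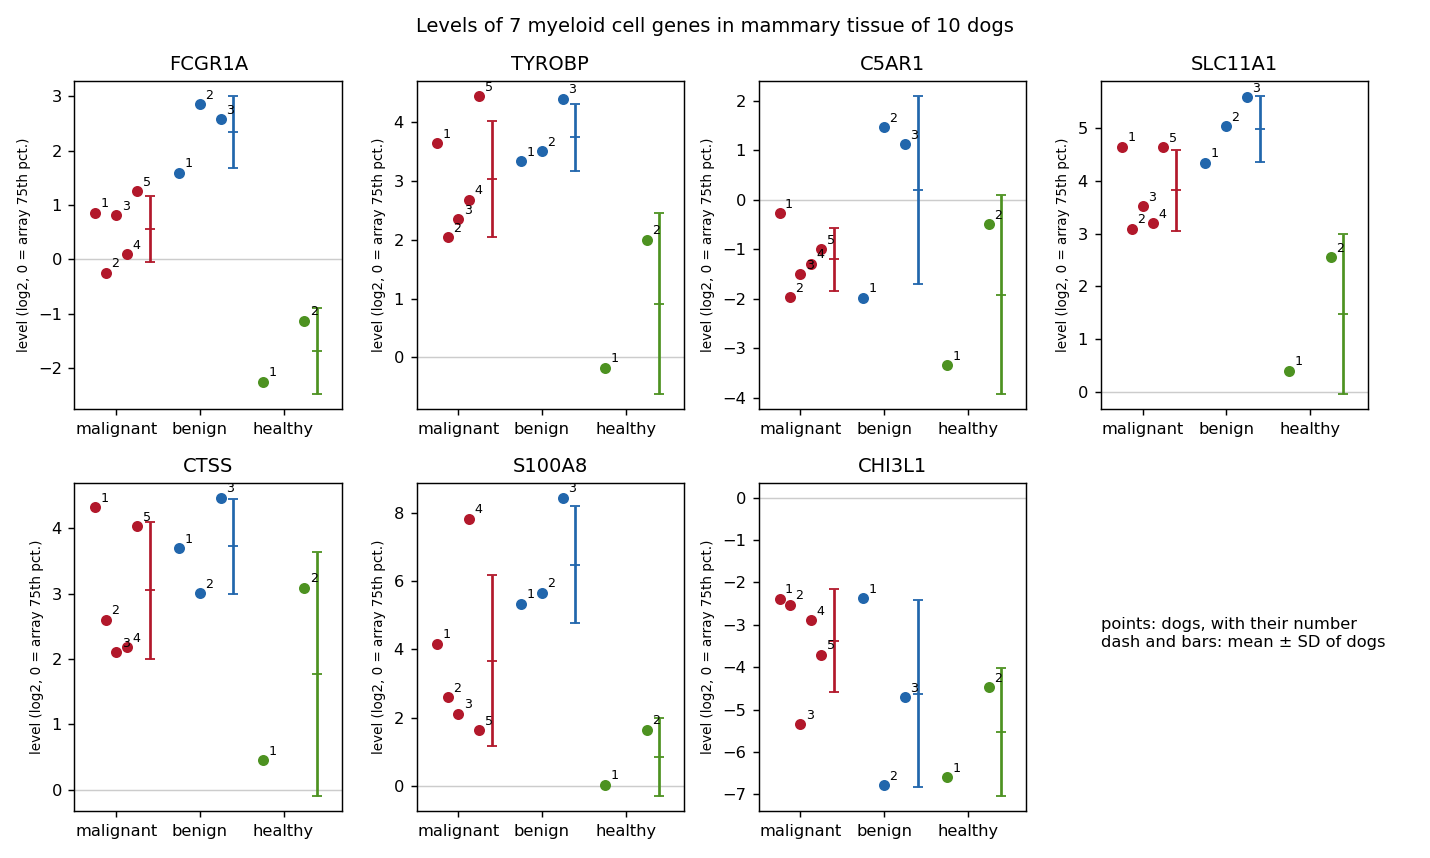
Level of each gene (log2 signal of the brightest probe, 0 at the 75th percentile of the array) in 5 malignant, 3 benign and 2 healthy dogs; points are dogs with their number, and dashes with bars are the mean ± SD over dogs. Every tumour lies above both healthy dogs in FCGR1A, TYROBP and SLC11A1, and healthy dog 2 lies among the tumours in C5AR1, CTSS, S100A8 and CHI3L1.

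FCGR1A, the high-affinity receptor for IgG on monocytes and macrophages, was the only member whose 3 groups did not overlap at all. Its level was 0.86, -0.24, 0.81, 0.10 and 1.25 in malignant dogs 1 to 5. It was 1.59, 2.86 and 2.58 in benign dogs 1 to 3 and -2.26 and -1.13 in healthy dogs 1 and 2. The order of the groups was benign, malignant, healthy, with no value of one group inside another. The means were 0.55 ± 0.61 (SD, n = 5) in malignant tumours, 2.34 ± 0.67 (SD, n = 3) in benign tumours and -1.69 ± 0.80 (SD, n = 2) in healthy tissue. Against healthy tissue the log2 fold change was 4.04 (SE 0.64) in benign tumours with an adjusted p of 0.0275 by limma, a 16.4-fold difference. It was 2.25 (SE 0.58) in malignant tumours, 4.74-fold, with an adjusted p of 0.379.

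The benign call of FCGR1A was sensitive to single dogs. The adjusted p by limma was 0.43 without healthy dog 1, 0.128 without benign dog 2 and 0.145 without benign dog 3. It was also above the threshold without malignant dogs 1, 3 or 4, at 0.0594, 0.0532 and 0.0553, which enter through the shared estimate of spread. The direction was positive in all 28 alternatives, with log2 fold changes between 3.47 and 4.60. With the dog as a random block over arrays, FCGR1A was called in malignant tumours too, at an adjusted p of 0.0272 by limma. That fit called 25 of 28936 genes higher there. On the 2 slides that held both benign and healthy arrays the difference was 3.19 and 3.27, and on the 3 slides with malignant and healthy arrays it ran from 1.08 to 2.57.

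TYROBP, also known as DAP12, is the adaptor that passes signals of activating receptors into myeloid and natural killer cells. Its level was 3.65, 2.04, 2.36, 2.68 and 4.45 in malignant dogs 1 to 5. It was 3.34, 3.51 and 4.40 in the benign dogs and -0.18 and 2.01 in the healthy dogs. Malignant dog 5 and benign dog 3 were highest, and malignant dog 2 lay only just above healthy dog 2. Benign and malignant values overlapped. The log2 fold change against healthy tissue was 2.84 (SE 0.85) in benign and 2.12 (SE 0.77) in malignant tumours, and neither was called, with adjusted p of 0.504 and 0.756 by limma. Against healthy dog 2 alone the difference in malignant tumours was 1.03.

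C5AR1, the receptor for the complement fragment C5a on neutrophils and macrophages, did not follow the same order. Its level was -0.27, -1.97, -1.50, -1.29 and -1.01 in malignant dogs 1 to 5. It was -1.98, 1.46 and 1.12 in the benign dogs and -3.34 and -0.50 in the healthy dogs. Benign dogs 2 and 3 stood above all other dogs, while benign dog 1 was level with the lowest malignant dog. Healthy dog 2 lay above 4 of the 5 malignant dogs. The log2 fold change was 2.12 (SE 1.08) in benign and 0.71 (SE 0.99) in malignant tumours, with adjusted p of 0.772 and 0.968 by limma. Without healthy dog 1 the malignant value turned to -0.71.

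SLC11A1, also known as NRAMP1, moves divalent metals across the phagosome membrane of macrophages and neutrophils. Its brightest probe was at 4.64, 3.09, 3.52, 3.20 and 4.63 in malignant dogs 1 to 5. It was at 4.34, 5.03 and 5.58 in the benign dogs and at 0.40 and 2.55 in the healthy dogs. All 8 tumours were above both healthy dogs, and benign dog 1 lay below malignant dogs 1 and 5. The log2 fold change was 3.51 (SE 0.77), 11.4-fold, in benign tumours and 2.34 (SE 0.71), 5.07-fold, in malignant tumours, with adjusted p of 0.209 and 0.55 by limma. The second probe of the gene gave 2.64 (SE 0.65) and 1.60 (SE 0.59), the same direction with a smaller size. SLC11A1 was called in benign tumours when arrays were fitted with the dog as a random block, at an adjusted p of 0.0248 by limma. That fit called 43 of 28936 genes higher there. With healthy dog 2 left out, the benign difference of SLC11A1 was 4.58. Without healthy dog 1 its benign difference was 2.43.

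CTSS, a cysteine protease of the lysosome that trims the invariant chain of MHC class II molecules, varied within each group. Its level was 4.32, 2.60, 2.11, 2.18 and 4.03 in malignant dogs 1 to 5. It was 3.70, 3.003 and 4.47 in the benign dogs and 0.45 and 3.09 in the healthy dogs. Healthy dog 2 stood above malignant dogs 2, 3 and 4 and above benign dog 2. The log2 fold change was 1.95 (SE 0.93) in benign and 1.28 (SE 0.85) in malignant tumours, with adjusted p of 0.746 and 0.939 by limma. The malignant value was -0.04 against healthy dog 2 alone and 2.60 against healthy dog 1 alone.

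S100A8, a calcium-binding protein that forms calprotectin with S100A9 and is abundant in neutrophils and monocytes, had the largest benign difference of the members. Its level was 4.17, 2.60, 2.12, 7.84 and 1.63 in malignant dogs 1 to 5. It was 5.35, 5.66 and 8.45 in the benign dogs and 0.03 and 1.64 in the healthy dogs. All benign dogs were above both healthy dogs, malignant dog 4 stood far above the rest of its group, and malignant dog 5 lay at the level of healthy dog 2. The log2 fold change was 5.65 (SE 1.64), 50.2-fold, in benign tumours, and only 4 of the 28936 genes had a larger rise there. The adjusted p was 0.489 by limma. In malignant tumours the value was 2.83 (SE 1.501), 7.13-fold, with an adjusted p of 0.888. Single dogs moved both, to 1.79 in malignant tumours without malignant dog 4 and to 4.67 in benign tumours without benign dog 3, and without healthy dog 1 they were 2.03 and 4.85.

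CHI3L1, also known as YKL-40, is a chitinase-like glycoprotein secreted by macrophages, neutrophils and some tumour cells. Its level was -2.38, -2.53, -5.35, -2.89 and -3.70 in malignant dogs 1 to 5. It was -2.37, -6.79 and -4.72 in the benign dogs and -6.60 and -4.47 in the healthy dogs. The probe was well above background on 7 of 9 malignant, 4 of 6 benign and 1 of 4 healthy arrays, and the low values of malignant dog 3, benign dog 2 and healthy dog 1 came from arrays without such a signal. The other members were well above background on every array. The log2 fold change was 2.16 (SE 1.15) in malignant and 0.91 (SE 1.25) in benign tumours, with adjusted p of 0.888 and 0.955 by limma. Both values depended on the treatment of background. With the normexp background correction they were 0.25 and -0.69, and in the table of signals without background subtraction 0.49 and -0.35. Without healthy dog 1 they were 1.095 and -0.16.

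**Figure D2:**
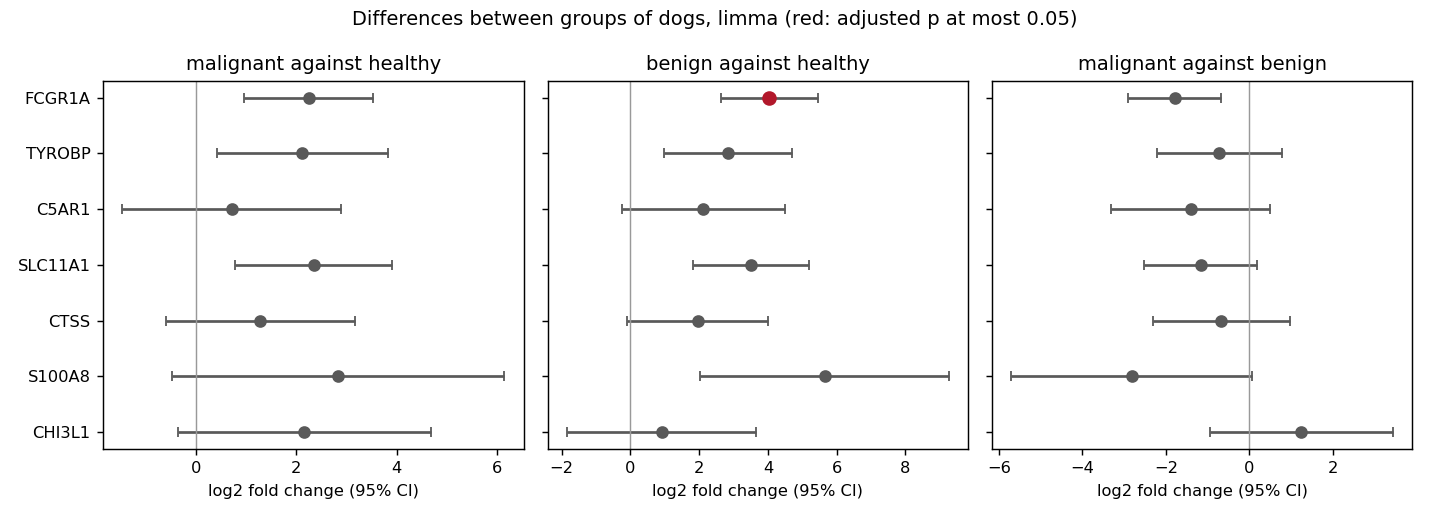
Log2 fold change of each gene with its 95% confidence interval (limma, 28936 genes tested) for malignant against healthy, benign against healthy and malignant against benign dogs; red marks an adjusted p of at most 0.05. Only FCGR1A in benign against healthy is marked, at 4.04, and 6 of 7 genes lie below 0 in malignant against benign.

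Benign and malignant tumours can be compared without the healthy dogs. Of the 7 members, 6 had the lower mean in malignant tumours, with a median log2 difference of -1.17 over the members beside 0.08 over all genes. FCGR1A differed by -1.79 (SE 0.51), with a 95% confidence interval from -2.92 to -0.67. The groups did not overlap in FCGR1A, the only member of which this was true, against 0.878% of all genes lower in malignant tumours. FCGR1A was also the only member below an unadjusted p of 0.05, which 1.11% of all genes reached in that direction. The adjusted p by limma was 1 for every member, and the share of genes called lower was 0%. S100A8 differed by -2.82 (SE 1.31, interval -5.71 to 0.07), C5AR1 by -1.41 (SE 0.86, interval -3.31 to 0.50) and SLC11A1 by -1.17 (SE 0.62, interval -2.52 to 0.19). TYROBP at -0.71 (SE 0.68) and CTSS at -0.67 (SE 0.75) lay within the spread between dogs, as did CHI3L1 at 1.25 (SE 1.00), the only member with the higher mean in malignant tumours.

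Malignant and benign arrays shared 4 slides, on each of which the comparison could be made. FCGR1A was lower in malignant tumours on 4 of 4 slides, by differences from -2.67 to -0.73, and CHI3L1 was higher on 4 of 4, from 0.01 to 2.704. The other 5 members were lower on 3 of 4 slides each. S100A8 ran from -3.37 to 1.00 across slides. Malignant dog 5 was alone on its slide and had a scan day of its own, so it entered none of these values. Without it, the direction of every member between malignant and benign tumours stayed as given.

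The 2 healthy dogs were themselves far apart. Healthy dog 1 was the lower of them in all 7 members and the lowest of all 10 dogs in 6, and its mean over the members was -1.64 against 0.46 in healthy dog 2. Healthy dog 1 was also the dog with the higher pancreas markers. Set against healthy dog 2 alone, the median of the members was 1.095 in malignant and 1.74 in benign tumours, and set against healthy dog 1 alone it was 3.21 and 3.93. Groups that did not overlap were found for 3 members in malignant tumours, where 4.23% of all genes were higher in this way, and for 4 members in benign tumours, where 11.9% were. The part of the pancreas signal in these differences was not tested.

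**Figure D3:**
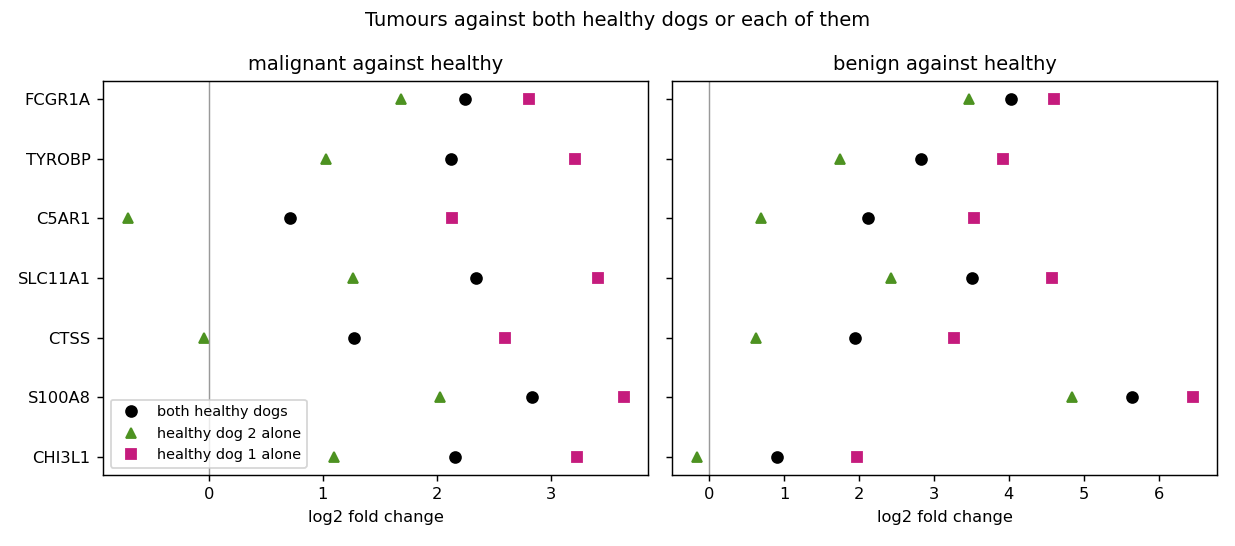
Log2 fold change of each gene in malignant (left) and benign (right) tumours against both healthy dogs, healthy dog 2 alone and healthy dog 1 alone. The value is lower against healthy dog 2 for every gene, and C5AR1 and CTSS in malignant and CHI3L1 in benign tumours then lie below 0, at -0.71, -0.04 and -0.16.

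Other genes of myeloid cells were read from lists by role. Many defining markers, such as CD14 and the receptor for CSF1, could not be paired with a probe by symbol and were not read. Probe targets without a symbol that passed the filter still count in the shares over all genes. No gene of these lists was called in either comparison with healthy tissue by limma after adjustment. Of 7 tested monocyte and macrophage genes, 6 had a positive log2 fold change in malignant and 7 in benign tumours, with medians of 0.85 and 1.75. An unadjusted p of at most 0.05 by limma was reached by 2 of them in malignant and by 4 in benign tumours, all higher. Over all genes 2.25% and 3% were higher in this way. CCR1, ADGRE1 and CX3CR1 were well above background on 1, 0 and 0 of the 4 healthy arrays. Their differences are thus against healthy values at the floor, and ADGRE1 and CX3CR1 passed the filter through tumour arrays alone. CD86, a costimulatory molecule of antigen-presenting cells, had values of 2.28 (SE 0.66) in malignant and 3.11 (SE 0.73) in benign tumours, and all tumours lay above both healthy dogs. CCR1, a receptor for inflammatory chemokines, had values of 1.80 (SE 0.56) and 2.08 (SE 0.61), but its probe was well above background on only 11 of 19 arrays. CD80, the relative of CD86, had values of 0.85 (SE 0.89) and 2.34 (SE 0.97).

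Genes of Fc receptor signalling, the oxidase, the lysosome and the S100 family were read next. FCER1G, the Fc receptor gamma chain that FCGR1A needs for signalling, had a log2 fold change of 1.18 (SE 0.64) in malignant and 2.85 (SE 0.70) in benign tumours. FCER1A, part of the IgE receptor, was at -0.13 (SE 1.42) and 1.58 (SE 1.55). Of the phagocyte oxidase, the enzyme of the respiratory burst, CYBB was at 0.55 (SE 0.85) and 2.03 (SE 0.93), and CYBA, which many cell types express, at -0.06 (SE 0.60) and 0.04 (SE 0.65). The lysosomal genes were mixed, with 3 of 5 positive in either comparison: CTSA was at 0.66 (SE 0.56) and 1.31 (SE 0.62), CTSK at 0.58 (SE 1.35) and 1.22 (SE 1.48), and GUSB at -0.99 (SE 0.63) and -0.78 (SE 0.69). S100A4, the tested relative of S100A8, was at 1.88 (SE 1.19) and 1.80 (SE 1.30). FCER1G in benign tumours had an unadjusted p of at most 0.05.

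The 4 tested neutrophil genes were mixed in direction. LTF, the iron-binding lactoferrin of neutrophil granules and of milk, was at 0.93 (SE 2.69) in malignant and 2.12 (SE 2.94) in benign tumours. CXCR2, the receptor for neutrophil-attracting chemokines, was at 0.11 (SE 0.85) and 1.92 (SE 0.92). ELANE, the elastase of neutrophil granules, was at -0.45 (SE 0.67) and -0.86 (SE 0.73). Of the 4 genes, 2 were positive in either comparison, and none passed an unadjusted p of 0.05. Among 4 genes of myeloid growth and differentiation, CSF2 was at -0.75 (SE 1.36) and 2.01 (SE 1.49), FLT3 at 0.40 (SE 0.97) and 0.64 (SE 1.05), and CD34 at -0.36 (SE 0.66) and -0.17 (SE 0.72). No complement gene of the list could be paired with a probe by symbol.

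Leukocytes of other lines were read in the same way. Of 7 genes of T cells and natural killer cells, 5 were positive in malignant and 6 in benign tumours, with medians of 0.44 and 1.48. CD28, ICOS and FOXP3 were well above background on 0 of the 4 healthy arrays and passed the filter through tumour arrays alone. Their differences are thus against healthy values at the floor. These medians are the values of ICOS in malignant and of FOXP3 in benign tumours. The medians were 0.41 and 0.44 for 3 genes of B and plasma cells and -0.20 and 1.06 for 4 genes of mast cells, and no gene of these lists was called. The mammary epithelium list was near 0, at -0.05 and 0.01 over 8 genes, and the fibroblast list was at 0.63 and 0.96 over 6 genes. The 3 endothelial genes had medians of -0.76 and -0.02, the 5 genes of platelets and erythrocytes -0.45 and -0.28, and the 3 adipose genes 1.19 and -0.78. The single pan-leukocyte gene was at -0.26 and -0.05.

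How the members varied together was examined over the 8 tumours, leaving out the healthy dogs. Among FCGR1A, TYROBP, C5AR1, SLC11A1 and CTSS, all 10 pairs had a positive Pearson r, from 0.42 for C5AR1 and CTSS to 0.90, with a median of 0.80. S100A8 had r from 0.15 to 0.49 with these 5 genes, a range that overlaps theirs, and CHI3L1 had r from -0.67 to 0.17 with the other 6 members. The values of S100A8 depended on single dogs. Without malignant dog 4 its r with these 5 genes ran from 0.45 to 0.75, within their own range there of 0.38 to 0.90. Without benign dog 3 it ran from -0.20 to 0.25. With each level of the 8 tumours set against the mean of its tumour group, the ranges of S100A8 and of the 5 genes did not overlap. They were -0.21 to 0.26 for S100A8 and 0.28 to 0.91 among the 5 genes. The gap between them was narrow and was not tested, and the set of 5 leaves out both members with low r. The lowest values of CHI3L1 rest on a probe at background in malignant dog 3 and benign dog 2. Its r with FCGR1A went from -0.67 to -0.12 without the 2 dogs farthest from the median of FCGR1A. That r was -0.79 without malignant dog 3 and -0.42 without benign dog 2. With normexp it was -0.84, and in the table of signals with malignant dog 6 it was -0.83. Of 21 pairs, 6 had an exact permutation p of at most 0.05 and 2 kept it after Benjamini-Hochberg adjustment over the 21 pairs. All tests of correlation were two-sided.

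The pair FCGR1A and SLC11A1 had r = 0.90 and Spearman's rho = 0.88, with an exact permutation p of 0.0031 for r and 0.00724 for rho and an adjusted p of 0.0495. The pair TYROBP and SLC11A1 had r = 0.89 and rho = 0.81, with exact permutation p of 0.00471 and 0.0218 and an adjusted p of 0.0495. When the 2 dogs farthest from the median were left out, r was 0.83 and 0.80, and the adjusted p by exact permutation was 0.386 for both. With each level set against the mean of its tumour group, r was 0.83 and 0.91 and no pair kept an adjusted p of at most 0.05. TYROBP and CTSS came next at r = 0.86 and rho = 0.83, with exact permutation p of 0.00871 and 0.0154 and an adjusted p of 0.0609, and at r = 0.84 against the group means. The size of these correlations was similar within the tumour groups.

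**Figure D4:**
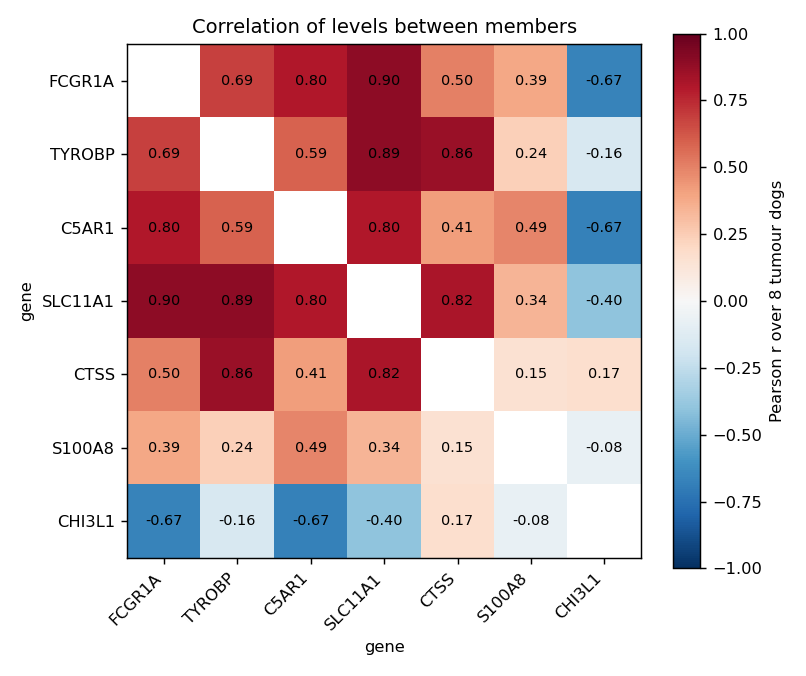
Pearson r between the levels of each pair of genes over 8 tumour dogs (5 malignant, 3 benign); the colour scale runs from -1 to 1. The pairs among FCGR1A, TYROBP, C5AR1, SLC11A1 and CTSS run from 0.42 to 0.90, and no pair with S100A8 or CHI3L1 is above 0.49.

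Benign dog 3 was first or second of the 10 dogs in all members except CHI3L1, and had the highest mean over the members, 3.13. Malignant dogs 1 and 5 were the highest of the malignant group in FCGR1A, TYROBP, C5AR1, SLC11A1 and CTSS, and malignant dog 2 was the lowest of it in FCGR1A, TYROBP, C5AR1 and SLC11A1. The tested monocyte and macrophage genes, none of them a member, had mean levels from -2.95 in malignant dog 2 to -1.40 in benign dog 3. This mean includes CCR1, ADGRE1 and CX3CR1, whose probes were well above background on 11, 12 and 7 of 19 arrays. Over the 8 tumours this mean followed SLC11A1 with r = 0.96 and rho = 0.93, with exact permutation p of 0.000546 and 0.00223 and an adjusted p of 0.0158 over 29 such relations. Without the 2 dogs farthest in SLC11A1, r was 0.91 with an exact permutation p of 0.0375, and within the groups it was 0.92. It was the only one of the 29 relations with an adjusted p of at most 0.05.

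The other members followed the monocyte and macrophage genes to a varied extent. Pearson r was 0.88 for FCGR1A (rho = 0.95), 0.84 for TYROBP (rho = 0.67), 0.78 for CTSS (rho = 0.69) and 0.71 for C5AR1 (rho = 0.60), with exact permutation p of 0.00389, 0.00987, 0.0204 and 0.0493 and adjusted p of 0.0565, 0.0954, 0.118 and 0.204. Without the 2 dogs farthest in the member, r was 0.93, 0.70, 0.72 and 0.39. It was 0.50 for S100A8 (rho = 0.50) and -0.33 for CHI3L1 (rho = -0.24), with exact permutation p of 0.211 and 0.431 and adjusted p of 0.465 and 0.568. CTSS had r = 0.82 (rho = 0.83) with the mean of the 7 genes of T cells and natural killer cells, with exact permutation p of 0.0132 and 0.0154 and an adjusted p of 0.0957, and r = 0.72 without the 2 dogs farthest in CTSS. SLC11A1 had r = 0.67 (rho = 0.71) with the same mean, with exact permutation p of 0.0767 and 0.0576 and an adjusted p of 0.256. The mean of the T cell and natural killer cell genes includes CD28, ICOS and FOXP3, well above background on 9, 7 and 4 of 19 arrays. The part of lymphoid cells in the CTSS level was not tested.

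The mean of the 4 neutrophil genes had an r below 0 with each of FCGR1A, TYROBP, C5AR1, SLC11A1 and CTSS, from -0.66 for TYROBP (rho = -0.76, exact permutation p of 0.0386, adjusted p of 0.187) to -0.12 for FCGR1A (adjusted p of 0.851). Against the group means r was -0.90 for TYROBP, -0.76 for SLC11A1, -0.72 for FCGR1A, -0.62 for CTSS and -0.35 for C5AR1. The unadjusted permutation p were 0.00144, 0.00375, 0.0235, 0.0679 and 0.372. They are approximate, because values were permuted across both tumour groups after the group means were taken off. With S100A8 its r was 0.39 and rho 0.19, with exact permutation p of 0.401 and 0.665 and an adjusted p of 0.554. LTF weighed heavily in that mean, since it ran from -5.64 in malignant dog 5 to 6.16 in benign dog 1.

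S100A8 ordered the tumours differently. Its highest levels, 7.84 in malignant dog 4 and 8.45 in benign dog 3, were in the dogs with the highest KRT14, a keratin of basal and squamous epithelium, at 7.34 and 8.37. Its lowest level, in malignant dog 5, stood beside the lowest KRT14, at 0.86. S100A8 is known to be made by stressed keratinocytes as well as by phagocytes. Over the 8 tumours r was 0.66 and rho 0.69, with exact permutation p of 0.0796 and 0.0694 and an adjusted p of 0.256. Without the 2 dogs farthest in S100A8, benign dog 3 and malignant dog 5, r was 0.29 over 6 dogs, so its size depended on these dogs. Against the group means r was 0.77. The relation was chosen after the values were seen, and KRT14 is 1 of 8 tested genes of the mammary epithelium list. With the mean of that list S100A8 had r = -0.03 and rho = 0.21. The exact permutation p were 0.942 and 0.619, and the adjusted p was 0.942. That mean was -1.13 in benign dog 3 and 0.04 in malignant dog 4, in a range from -2.10 to 3.84 over the tumours. CXCR2 was also highest in benign dog 3, at -2.21, but was at -4.49 in malignant dog 4. The part of epithelium and of neutrophils in the S100A8 level was not tested.

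**Figure D5:**
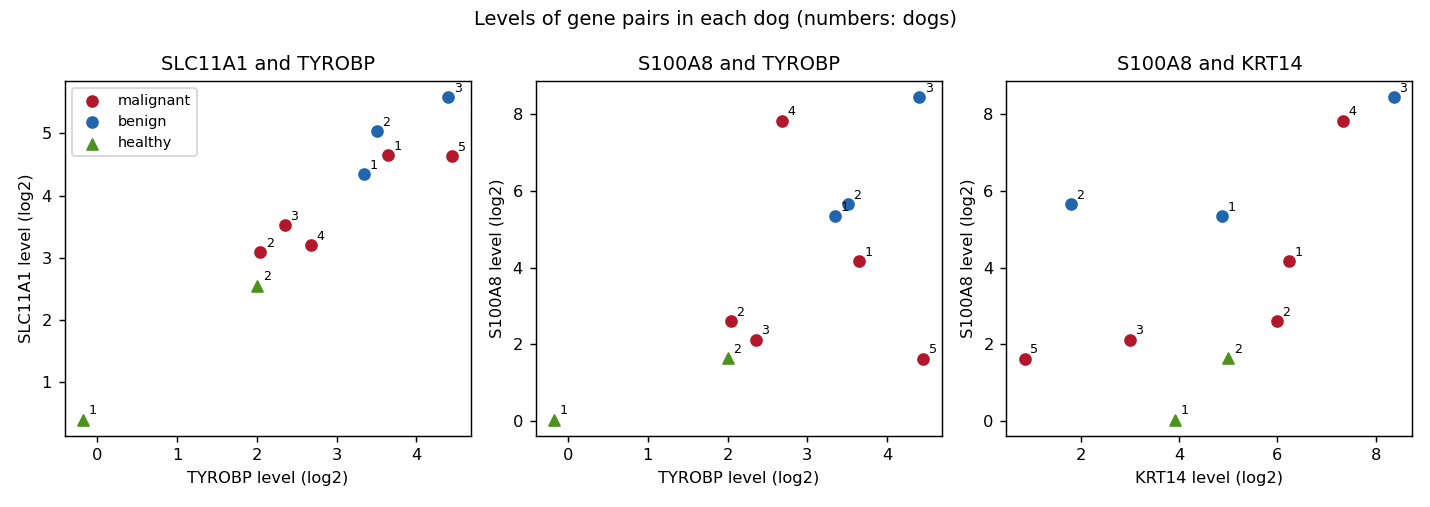
Levels (log2) of SLC11A1 against TYROBP, S100A8 against TYROBP and S100A8 against KRT14 in each of 10 dogs, with the dog's number. SLC11A1 and TYROBP have r = 0.89 over the tumours, S100A8 is lowest among tumours in malignant dog 5, where TYROBP is highest at 4.45, and both highest values of S100A8 lie at the highest values of KRT14.

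The genes most like each member were taken from 1315 genes with a symbol by Pearson r over the 8 tumours, as a description with no test. All dogs, arrays and scaling are shared by the points. For FCGR1A they were OTUB1 (r = 0.90), SERPINA1 (r = 0.89) and PLEK (r = 0.85), and those given for SLC11A1 are SERPINA1 (r = 0.89) and PPT1 (r = 0.88). For TYROBP they were MAPRE1 (r = 0.96), CD163 (r = 0.94), the haemoglobin scavenger receptor of macrophages, and SLC23A2 (r = 0.93). CTSS was nearest to DLA88 (r = 0.96) and DLA-DQA1 (r = 0.95), dog MHC genes of class I and class II, and to PTGER2 (r = 0.94). C5AR1 was nearest to CSF2 (r = 0.95), TYMS (r = 0.92) and MAPK14 (r = 0.92). S100A8 was nearest to COL7A1 (r = 0.96), the collagen of epithelial anchoring fibrils, MSMO1 (r = 0.92) and CCL20 (r = 0.90). CHI3L1 was nearest to CLU (r = 0.87), BEX4 (r = 0.85) and PYGL (r = 0.83).

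Ranks among all 28934 other genes with a level in each tumour show how close the members were to each other. SLC11A1 ranked 18 in likeness to FCGR1A and 59 in likeness to TYROBP, so that 0.0588% and 0.2% of genes were closer. CTSS ranked 117 in likeness to TYROBP, and TYROBP ranked 76 in likeness to CTSS. Not every pair of these genes was as close, since 12.9% of genes were nearer to C5AR1 than CTSS was, and 10.3% nearer to CTSS than FCGR1A was. S100A8 stood in a similar or lower place, with 9.51% of genes nearer to C5AR1, 13.3% nearer to FCGR1A and 28.5% nearer to TYROBP.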

How the data were processed

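The processed signals of 19 Agilent arrays of 10 dogs were analysed. The authors deposited them as intensity on a linear scale from Feature Extraction 11.5.1.1, after background subtraction and without scaling from array to array. The deposited table of signals of all arrays gives the unscaled median intensity of every spot, and malignant dog 6 was read from it alone. The study's own test was a paired t-test under a Storey correction. It was not run here, because the labels do not pair dogs of different groups, and an unpaired t-test was used in its place.

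Control spots and outlier spots were left out. The log2 signal minus the 75th percentile of each array was averaged over the arrays of a dog, which hold the same RNA or a duplicate labelling of it. The brightest probe stood for its gene, and genes were tested where 4 or more arrays had this probe well above background. All 3 groups entered 1 fit in limma 3.58.1 (R 4.3.3), adjusted by Benjamini-Hochberg over 28936 genes with a threshold of 0.05. Correlations used exact permutation of dogs (Python 3.11.15, numpy 2.4.6, scipy 1.17.1). Both were tested on simulated data. Probes were named through RefSeq transcripts, which gave 1458 genes a symbol. No coordinates and no sequences were used, because those at hand belong to another assembly or were not analysed here. Columns of values left unused numbered 0.

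Named were all members, every called gene of the myeloid lists, the 3 genes of each list with the largest mean difference between tumours and healthy tissue, and the 3 genes most like each member. Also named were a few genes that set a limit on the reading of a list. A gene that these rules name is not reported here. The members and lists were chosen with earlier results of these data known. Alternatives were background correction, scaling, probe choice, filter, blocks, the table of signals, an unpaired t-test and leaving out each dog. The normexp correction used median signals and an offset of 50, since the mean signals planned for it were not at hand. The labels count 3 benign and 2 healthy dogs, fewer than the methods do, and the labels were followed. The p-values measure the spread between dogs, and the number of arrays and dogs limits the precision.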

Additional observations from a re-analysis of the deposited data

Results flagged for a closer look

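CTSK, a lysosomal protease, had a level of 5.38 in malignant dog 5, far above the other malignant dogs, which lay between 1.22 and 2.29. The gap to the next dog was 0.742 of the range of the group, beyond the critical value of 0.71 for 5 dogs, in 1 of 26 groups of values tested, and chance gives about 1 in 20. None of the 8 member probes had such a dog.

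Malignant dog 6 entered no comparison of scanner values and was read from the table of signals alone, where no background is taken off. All 7 members were above both healthy dogs in it. FCGR1A was at 1.26, against -1.60 and -0.80 in healthy dogs 1 and 2 on the same scale. TYROBP was at 2.87 (healthy -0.001 and 2.10), C5AR1 at -0.56 (healthy -2.36 and -0.61) and SLC11A1 at 4.16 (healthy 0.33 and 2.40). CTSS was at 3.73 (healthy 0.56 and 3.18), S100A8 at 3.91 (healthy 0.11 and 1.73) and CHI3L1 at -2.69 (healthy -3.13 and -2.97). C5AR1 and CHI3L1 exceeded healthy dog 2 by little.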

How the results depend on the processing

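The number of members called depended on the model. In benign against healthy tissue 1 member was called. It was 2 with the dog as a random block over arrays, 2 with slide as a term and 4 with scan day as a term. Over all 28936 genes, 43, 7 and 81 were called higher in these fits, against 1 in the main fit. By an unpaired t-test without adjustment 3 members were called, beside 761 genes higher. With Benjamini-Hochberg adjustment it called 0 members and 0 genes higher. The same held with the 2 groups compared alone and with the dog number as a replicate block. Leaving out each dog gave 0 to 2. In malignant against healthy tissue 0 members were called. It was 1 with the dog as a random block over arrays (25 of all genes higher) and 1 with scan day as a term (47 higher). It was 2 by the unpaired t-test without adjustment (596 higher). In malignant against benign it was 0, with 1 by that t-test, beside 638 genes in either direction. Dog numbers share only a number between groups (r of same-numbered deviations from -0.187 to 0.106), and no pairing was assumed.

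Direction turned in a few cases. C5AR1 and CTSS in malignant tumours were at -0.707 and -0.042 without healthy dog 1, and at 2.13 and 2.60 without healthy dog 2. CHI3L1 in benign tumours was at -0.69 with normexp, -0.35 with the table of signals (19 or 22 arrays), -0.22 without benign dog 1 (1.99 without benign dog 2) and -0.16 without healthy dog 1. The normexp setting lowered the median over all genes to -0.21 in malignant and -0.53 in benign tumours, and the table of signals (22 arrays) to -0.13 and -0.39. The causes were not tested. The percentile over probes detected on every array was chosen after seeing the data and changed no count of members called.

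Of 21 pairs, 2 were called over 8 tumours. It was 7 over all 10 dogs, 4 with normexp (1 of them a negative r, FCGR1A and CHI3L1), 8 in the table of signals with malignant dog 6 (2 of them negative, CHI3L1 with FCGR1A and with C5AR1), and 0 with quantile normalization, against group means and without the 2 farthest dogs. Leaving out each tumour gave 0 to 3. The relations with list means and KRT14 were chosen after seeing the data.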
